A study of Homo sapiens with 12 samples.

Results

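IGFBP5, IGF2BP3 and GRB10 are 3 genes that act at different points of insulin-like growth factor (IGF) signalling. They were followed here across 3 lines of BT-549, a widely used human breast cancer cell line that is triple-negative and mesenchymal-like. The genes were picked by symbol after their values in these lines had been seen, chiefly their low levels in BT-A6sh5, so their levels and differences are given as a description with no test. They were 3 of the 14884 genes with a symbol on the array, and each was represented by 1 of the 16098 transcript clusters (the probe groups that stand for a transcript) with a symbol, namely 16908197 for IGFBP5, 17055828 for IGF2BP3 and 17057759 for GRB10. All other tests were made on all 53617 transcript clusters.

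All 3 lines were stably transfected subclones of BT-549, grown in serum-containing medium without further treatment, and each was measured on 4 Affymetrix human gene arrays. BT-EV, the control, carried the empty vector and is labelled as control shRNA by the submitters. BT-A6sh2 and BT-A6sh5 each carried a different shRNA against ANXA6, the gene of the calcium-dependent membrane-binding protein annexin A6. Each shRNA was thus present in 1 line, so the degree of depletion, the shRNA and the subclone cannot be told apart, and neither can fewer cells with a transcript and less transcript per cell. The sample titles call the arrays of a line biological replicates and the paper calls them technical, so p-values measure only the spread between these arrays. One label of BT-A6sh2 replicate 1, its description, gives the shRNA of BT-A6sh5, but the title and the transfectant entry give the one of BT-A6sh2, and the array was kept in that line.

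The targeted gene was low in both knockdown lines. ANXA6 had a mean log2 level of 11.41 in BT-EV, 10.45 in BT-A6sh2 and 8.78 in BT-A6sh5, with the 4 arrays of each line apart from those of the other 2. The log2 difference was -0.96 for BT-A6sh2 (adjusted p = 0.000158, limma's empirical Bayes test with Benjamini-Hochberg adjustment) and -2.63 for BT-A6sh5 (adjusted p = 2.21e-09). The lines differed in the spread between arrays. The residual SD was 0.196 on BT-EV arrays, 0.272 on BT-A6sh5 arrays and 0.447 on BT-A6sh2 arrays, and BT-A6sh2 replicates 1 and 3 stood apart from the other 10 arrays in the spread of their values. The hybridization controls, transcripts added to every sample, lay between 8.10 and 8.29 for BT-EV, between 8.50 and 8.92 for BT-A6sh5 and between 8.66 and 9.05 for BT-A6sh2 as array means on the log2 scale, and their part in the results was not tested. Of 14 mesenchymal markers 10 were measured, with array means of 9.52 to 9.61 for BT-EV, 9.20 to 9.29 for BT-A6sh5 and 9.49 to 9.60 for BT-A6sh2, and their part in the results was not tested. In BT-A6sh5 4 of the 10 fell and 0 rose, where 12.7% of genes with a symbol were called lower, and in BT-A6sh2 2 rose and 2 fell (5.13% and 4.78% of genes with a symbol). Of 15 epithelial markers 12 were measured, with array means of 5.24 to 5.54, of which 2 fell in BT-A6sh2 and 0 passed in BT-A6sh5, and the defining gene EPCAM was the lowest, with line means of 3.47 to 3.72. Line means of the 4 measured endothelial markers were 4.29 to 6.29, and of the 3 measured leukocyte markers CD14 was at 4.11 to 4.58 and CD68, also a lysosomal protein of other cells, at 11.0 to 11.6.

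IGF1 and IGF2 are secreted ligands that activate IGF1R, a receptor tyrosine kinase of the cell surface, which passes the signal through docking proteins such as IRS1 and IRS2 to the PI3K, AKT and mTOR kinases. IGF binding proteins hold the ligands outside the cell, and IGFBP5, one of them, also binds the extracellular matrix and is known in mammary gland for its rise during involution. GRB10 is an adaptor that binds the activated IGF1 and insulin receptors and dampens their signal, and it is an imprinted gene. IGF2BP3 is an oncofetal RNA-binding protein that binds, among many transcripts, the mRNA of IGF2, and it is a known marker of triple-negative breast cancers.

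The stretches of genome just before the transcription starts of the 3 genes are shown because all 3 genes were low in the same line. Each is the 250 bases before the start, 5′ to 3′ on the minus strand of the gene (RefSeq, GRCh38.p14), and capitals mark matches to the motifs searched. The windows are chr2:216695550-216695799 for IGFBP5, chr7:23470492-23470741 for IGF2BP3 and chr7:50793454-50793703 for GRB10, the most upstream of the 5 starts that RefSeq lists for GRB10. The array does not tie its GRB10 transcript cluster to one of these starts.
IGFBP5: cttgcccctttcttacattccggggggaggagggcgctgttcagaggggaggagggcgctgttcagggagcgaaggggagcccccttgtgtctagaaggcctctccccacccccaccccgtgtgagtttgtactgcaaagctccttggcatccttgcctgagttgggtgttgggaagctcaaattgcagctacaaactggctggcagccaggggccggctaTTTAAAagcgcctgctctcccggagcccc
IGF2BP3: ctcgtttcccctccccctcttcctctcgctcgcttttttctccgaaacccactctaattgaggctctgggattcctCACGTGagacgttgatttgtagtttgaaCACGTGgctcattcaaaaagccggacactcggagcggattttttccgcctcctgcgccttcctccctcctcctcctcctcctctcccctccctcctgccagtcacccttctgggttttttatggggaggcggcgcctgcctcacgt
GRB10: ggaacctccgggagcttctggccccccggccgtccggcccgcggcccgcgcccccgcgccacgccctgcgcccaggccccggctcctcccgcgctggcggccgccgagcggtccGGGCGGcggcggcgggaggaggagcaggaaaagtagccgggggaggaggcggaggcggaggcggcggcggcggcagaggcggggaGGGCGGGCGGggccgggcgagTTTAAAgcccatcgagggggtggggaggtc

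The windows did not look alike. The GC content was 61.2% before IGFBP5, 56.8% before IGF2BP3 and 81.6% before GRB10, against a median of 58% over the 35116 windows of all RefSeq starts. Searched on both strands were TTTAAA, the E-box CACGTG, the GC box GGGCGG, the short motif CCAAT, the AP-1 site written TGANTCA and the FOXO site written TGTTTAC. The run TTTAAA began 29 bases before the start of IGFBP5 and 30 bases before that of GRB10, and it was found in 11.3% of all windows. CACGTG had 2 matches before IGF2BP3, beginning 174 and 146 bases before its start, and was found in 6.34% of windows. GGGCGG had 3 matches before GRB10, beginning 136, 51 and 47 bases before the start, the last 2 of which share bases, and was found in 42.6% of windows. The CCAAT, AP-1 and FOXO motifs, found in 32%, 6.57% and 2.98% of windows, had no match in these 3, and none of the 6 motifs had a match in all 3. A match is only a run of letters and not a bound site.

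IGFBP5 had by far the largest difference of the 3 genes. On the 4 BT-EV arrays its log2 level was 11.52, 11.63, 11.47 and 11.52, with a mean of 11.54 ± 0.064 (SD, n = 4). On the 4 BT-A6sh2 arrays it was 11.69, 11.57, 11.67 and 11.50, with a mean of 11.61 ± 0.089. On the 4 BT-A6sh5 arrays it was 6.87, 7.02, 7.01 and 6.80, with a mean of 6.93 ± 0.11. Every BT-A6sh5 array thus lay at least 4.45 log2 units below every array of the other 2 lines, whereas the BT-EV and BT-A6sh2 arrays overlapped. The mean log2 difference from BT-EV was -4.61 in BT-A6sh5, a level 24.4 times lower with 4.10% of the control level left, and 0.07 in BT-A6sh2, against a pooled SD between arrays of 0.0888. Only 2 of the 16098 transcript clusters with a symbol, IGFBP5 included, were at or below this difference in BT-A6sh5.

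IGF2BP3 was lower in BT-A6sh5 by a smaller step. Its log2 level was 6.44, 6.39, 6.39 and 6.33 on the BT-EV arrays (mean 6.39 ± 0.046, SD, n = 4). In BT-A6sh2 it was 6.19, 6.03, 6.08 and 6.39 (mean 6.17 ± 0.16). In BT-A6sh5 it was 5.33, 5.22, 4.99 and 5.23 (mean 5.19 ± 0.14). BT-A6sh5 did not overlap with either of the other lines, and in BT-A6sh2 replicate 4 reached into the BT-EV range while the other 3 arrays lay below it. The log2 difference from BT-EV was -1.20 in BT-A6sh5, 2.29 times lower as measured, and -0.22 in BT-A6sh2, with a pooled SD of 0.128. The BT-A6sh5 arrays lay close to the array medians of 4.92 to 5.05 and were not shown to be above background, so the level left in this line is not known and the fold may be understated. Among the transcript clusters with a symbol, 200 (1.24%) were at or below the difference of IGF2BP3 in BT-A6sh5.

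GRB10 was also lower in BT-A6sh5. Its log2 level was 6.51, 6.41, 6.20 and 6.33 in BT-EV (mean 6.37 ± 0.13, SD, n = 4). The BT-A6sh2 arrays gave 6.79, 6.57, 6.45 and 6.23 (mean 6.51 ± 0.23). The BT-A6sh5 arrays gave 5.10, 5.08, 5.17 and 5.44 (mean 5.20 ± 0.17). Again BT-A6sh5 lay below all arrays of the other lines, which overlapped with each other, and the highest BT-A6sh5 array was replicate 4. The log2 difference from BT-EV was -1.17 in BT-A6sh5, 2.25 times lower as measured and with the same limit from the array medians, and 0.15 in BT-A6sh2, with a pooled SD of 0.183. In BT-A6sh5, 211 transcript clusters with a symbol (1.31%) were at or below it.

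**Figure D1:**
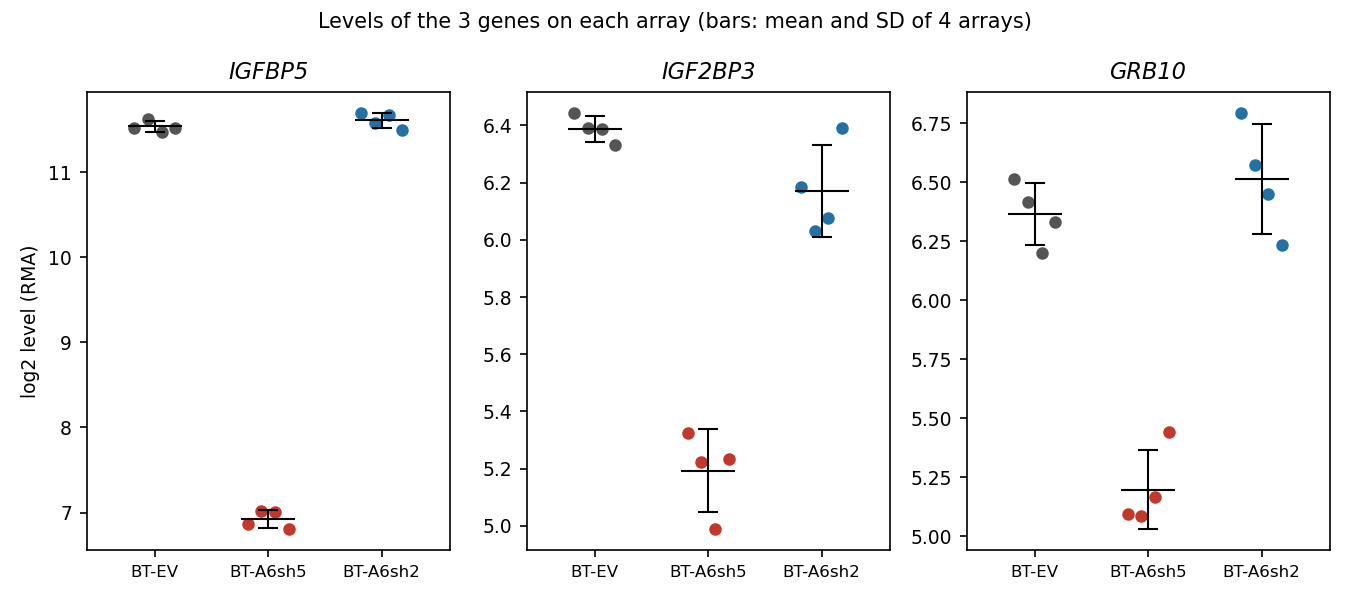
RMA log2 level of IGFBP5, IGF2BP3 and GRB10 on each of the 12 arrays by line, with the mean and SD of 4 arrays as bars and a separate vertical scale for each gene. The BT-A6sh5 arrays lie below all others for the 3 genes, near 6.93 for IGFBP5, 5.19 for IGF2BP3 and 5.20 for GRB10, and the BT-EV and BT-A6sh2 arrays overlap.

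The order of the lines was therefore BT-A6sh5 lowest for all 3 genes, with overlapping arrays of BT-EV and BT-A6sh2 next to each other. BT-A6sh2 had the higher mean for IGFBP5 and GRB10, by less than the pooled SD, and the lower one for IGF2BP3, by more than the pooled SD of 0.128. Directly between the knockdown lines, BT-A6sh5 was lower by 4.68 for IGFBP5, 0.98 for IGF2BP3 and 1.31 for GRB10 on the log2 scale. The share of all transcript clusters whose arrays did not overlap between lines is not given here. The lack of overlap is therefore only a description of genes picked with their low levels known. As background by another measure, 6.71% of all transcript clusters were called lower and 4.11% higher in BT-A6sh5 than in BT-EV at an adjusted p under 0.05. In BT-A6sh2 against BT-EV 3.13% were called lower and 5.35% higher, and in BT-A6sh5 against BT-A6sh2 11.4% lower and 8.16% higher. The comparisons share arrays, so they do not bear on each other independently. Among the 14884 genes with a symbol, 12.7% were called lower and 6.30% higher in BT-A6sh5, and 4.78% lower and 5.13% higher in BT-A6sh2.

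Over the 12 arrays, Pearson's r was 0.957 between IGFBP5 and IGF2BP3, 0.963 between IGFBP5 and GRB10 and 0.896 between IGF2BP3 and GRB10. The 12 points share 3 line means, of which BT-A6sh5 lay apart for each gene. With each line's mean subtracted, r was -0.497, 0.158 and -0.239, so arrays of a line that were high for one of the genes were not regularly high for another. The genes with a symbol most like IGFBP5 over the 12 arrays were KIAA1191 (r = 0.998), SNAI2 (0.998), which encodes the transcription factor Slug, NRN1 (0.997), which encodes neuritin, the syndecan gene SDC2 (0.997) and CPED1 (0.995). Their line means had the same form, with SDC2 at 8.14 in BT-EV, 8.08 in BT-A6sh2 and 4.86 in BT-A6sh5, and SNAI2 at 12.19, 12.18 and 10.97. For IGF2BP3 they were NRIP3 (0.986), the threonyl-tRNA synthetase gene TARS1 (0.985), the ion channel gene MCOLN3 (0.984), TCEAL8 (0.982) and KCNIP1 (0.982), with NRIP3 at 8.59 in BT-EV, 8.15 in BT-A6sh2 and 6.32 in BT-A6sh5. For GRB10 they were PAXIP1-AS2 (0.986), the biliverdin reductase gene BLVRB (0.976), NOP53 (0.975), UBP1 (0.975) and the drebrin gene DBN1 (0.974), with DBN1 at 8.48, 8.54 and 7.36 in the same order of lines. No gene was on more than 1 of the 3 lists. These genes were picked as the most alike, so r is a description.

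The other genes of the IGF system are taken here by role, from 6 lists that held 101 further genes, of which 68 had a transcript cluster with a symbol. In BT-A6sh5, 7 of the 68 rose and 12 fell against BT-EV (10.3% and 17.6%), against 6.30% and 12.7% of all genes with a symbol. In BT-A6sh2, 5 rose and 5 fell (7.35% each, against 5.13% and 4.78%). The same shares of all genes with a symbol are the background for the counts of each list below. Some of these counts lie near that background, such as the adaptors, of which 12.5% fell in BT-A6sh5. The median log2 difference over the 68 genes was -0.04 in BT-A6sh5 and 0.03 in BT-A6sh2, and that over all genes with a symbol, 1 transcript cluster each, was 0.01 and 0.00. Single arrays moved the counts of the 68 genes. In BT-A6sh5, 4 rose without BT-EV replicates 1 or 3 or BT-A6sh5 replicates 1 or 3. In BT-A6sh2, 8 rose without BT-A6sh2 replicate 2, and 2 fell without any 1 of the BT-EV arrays and 3 without any 1 of the BT-A6sh5 arrays. The share called over all transcript clusters moved too. In BT-A6sh5 it was 2.91% to 3.37% higher without the arrays named, against 4.11%. In BT-A6sh2 it was 11% higher without BT-A6sh2 replicate 2, against 5.35%. The share called lower there was 1.15% to 1.28% without 1 BT-EV array and 2.37% to 2.74% without 1 BT-A6sh5 array, against 3.13%.

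Of the 5 measured ligands and receptors, 1 fell in BT-A6sh5 and none passed in BT-A6sh2. IGF1, the circulating and local growth factor, had log2 differences of -0.15 and 0.03 in BT-A6sh5 and BT-A6sh2 (adjusted p = 0.771 and 0.942), and its level of 4.29 to 4.47 as a line mean was below the array medians of 4.92 to 5.05. IGF2 was not analysed here. IGF1R, the signalling receptor, had 0.20 (95% interval -0.03 to 0.43, adjusted p = 0.339) and -0.16 (95% interval -0.39 to 0.08, adjusted p = 0.366). IGF2R, which binds IGF2 and carries it to lysosomes, had 0.08 and 0.09. INSR, the insulin receptor and the other main partner of GRB10, fell in BT-A6sh5 by 0.53 (SE 0.125, adjusted p = 0.0162) and differed by 0.07 in BT-A6sh2 (adjusted p = 0.765). Its BT-A6sh5 arrays at 7.35, 7.32, 7.04 and 7.11 all lay below the BT-EV arrays at 7.82, 7.71, 7.76 and 7.65. The call was lost without BT-EV replicate 1 (adjusted p = 0.0558) and without BT-A6sh5 replicate 3 (adjusted p = 0.0553).

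The binding proteins, the family of IGFBP5, held the largest tested changes of the system. Of 12 measured binding proteins, their proteases and protease inhibitors, BT-A6sh5 had 3 that rose and 3 that fell, and BT-A6sh2 had 2 of each. IGFBP7, a matrix-bound relative with weak affinity for IGFs, had log2 levels of 10.63, 10.76, 10.60 and 10.66 in BT-EV against 7.79, 7.58, 7.65 and 7.90 in BT-A6sh5. It fell by 2.93 there (SE 0.0961, adjusted p = 2.30e-09), 7.63 times, and with 9.87, 9.69, 9.93 and 9.83 it also fell in BT-A6sh2, by 0.83 (adjusted p = 0.000877). IGFBP7 was thus lower in both knockdown lines, whereas for IGFBP5 the BT-A6sh2 arrays overlapped with BT-EV. IGFBP6, which prefers IGF2 over IGF1, went opposite ways. It was 9.36, 9.30, 9.09 and 9.25 on the BT-EV arrays and 7.38, 7.10, 7.27 and 6.74 in BT-A6sh5, and it fell by 2.13 (SE 0.133, adjusted p = 8.35e-07). In BT-A6sh2 it was 10.12, 10.12, 9.94 and 9.93, a rise of 0.78 (adjusted p = 0.00751), and the difference between the knockdown lines was -2.91 (adjusted p = 4.83e-08).

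IGFBP4, which restrains IGF action until it is cleaved, rose where IGFBP5 was low. Its log2 level was 9.30, 9.39, 9.36 and 9.36 in BT-EV and 12.07, 12.08, 12.16 and 11.97 in BT-A6sh5, while the BT-A6sh2 arrays gave 9.68, 9.12, 9.45 and 9.27. The rise in BT-A6sh5 was 2.71 (SE 0.114, adjusted p = 2.44e-08), 6.55-fold, and the difference in BT-A6sh2 was 0.02 (95% interval -0.23 to 0.27, adjusted p = 0.916). PAPPA2, a protease that cleaves IGFBP5 and IGFBP3, rose in BT-A6sh5 as well, by 2.76 (SE 0.185, adjusted p = 1.51e-06), from 5.29, 5.19, 5.57 and 5.33 in BT-EV to 8.40, 8.36, 7.91 and 7.75. Its BT-EV arrays lay close to the array medians of 4.92 to 5.05 and were not shown to be above background. The control level of PAPPA2 is thus not known and its rise may be understated. In BT-A6sh2 PAPPA2 was at 6.16, 5.44, 5.60 and 5.59, a difference of 0.35 (adjusted p = 0.241), with replicate 1 above the other arrays. STC2, an inhibitor of the pappalysin proteases, fell in BT-A6sh5 by 1.10 (SE 0.0766, adjusted p = 2.04e-06) and rose in BT-A6sh2 by 0.41 (adjusted p = 0.0108). IGFBP3, the main binding protein of serum, differed little, with line means of 10.79, 10.79 and 10.82 in BT-EV, BT-A6sh5 and BT-A6sh2 and a 95% interval of -0.17 to 0.18 for BT-A6sh5. IGFBP1 had 0.04 and -0.03 at line means of 4.73 to 4.79, below the array medians of 4.92 to 5.05. IGFBP2 was not analysed here.

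**Figure D2:**
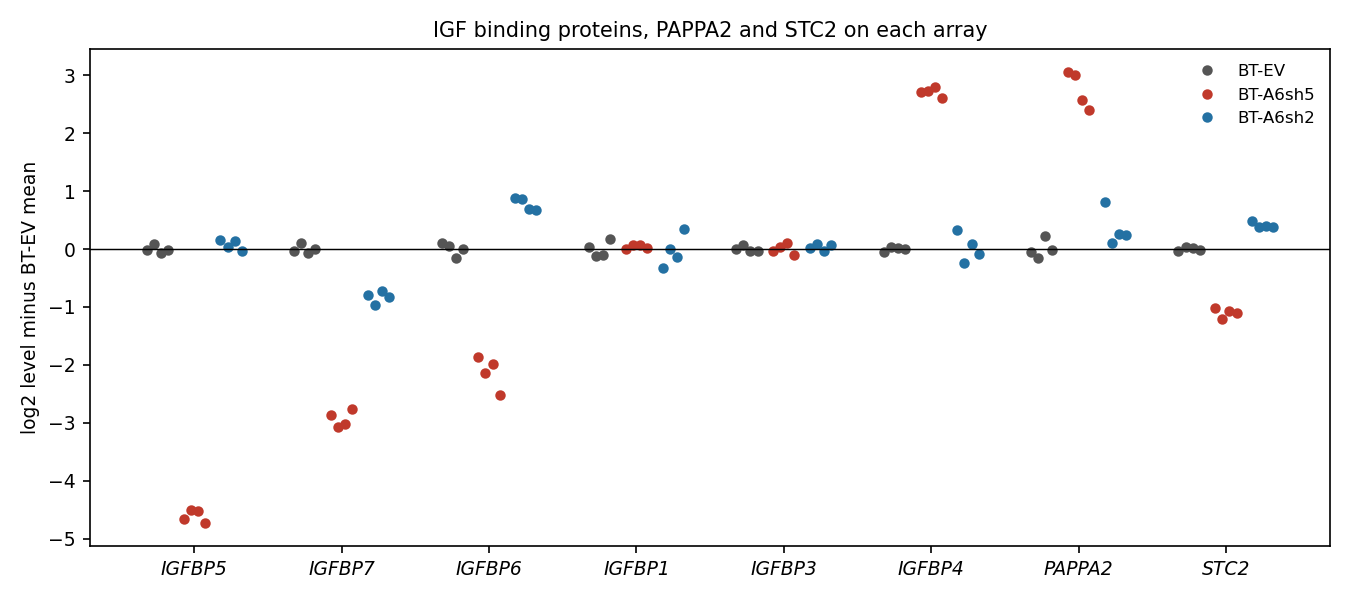
Log2 level on each of the 12 arrays minus the BT-EV mean of the same gene for the measured IGF binding proteins, the protease PAPPA2 and the inhibitor STC2, coloured by line. IGFBP5, IGFBP7 and IGFBP6 lie low and IGFBP4 and PAPPA2 high in BT-A6sh5, where the mean differences are -4.61, -2.93, -2.13, 2.71 and 2.76. IGFBP1 and IGFBP3 stay near 0 in all lines, IGFBP1 at line means below the array medians.

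Of the family of IGF2BP3, the other 2 members had unlike values. IGF2BP2, which binds many of the same kinds of transcripts, was 9.95, 9.91, 9.96 and 9.89 in BT-EV and 9.45, 9.47, 9.39 and 9.49 in BT-A6sh5, and it fell by 0.48 (SE 0.101, adjusted p = 0.00893). In BT-A6sh2 it was 10.43, 9.97, 10.36 and 10.23, a difference of 0.32 (adjusted p = 0.0715) with all 4 arrays above those of BT-EV, which passed without BT-A6sh2 replicate 2 (0.41, adjusted p = 0.0102). Without that array 11% of all transcript clusters were called higher in BT-A6sh2, against 5.35% with it. The difference between the knockdown lines was -0.79 (adjusted p = 0.000214). IGF2BP1, usually an embryonic gene, had line means of 4.81, 4.93 and 4.84, near or below the array medians. Its differences were 0.12 (adjusted p = 0.728) and 0.03 (adjusted p = 0.902). On the list of the IGF2BP family, LIN28 and genes linked to the let-7 miRNAs, 2 of the 12 measured genes fell in BT-A6sh5 and 0 rose, and in BT-A6sh2 0 passed. The 2 that fell were IGF2BP2 and MYC, a transcription factor gene, by 0.59 for the latter (SE 0.0928, adjusted p = 0.00125), with -0.06 for BT-A6sh2 (adjusted p = 0.731).

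Neither measured relative of GRB10 passed the test in BT-A6sh5 or BT-A6sh2. Both had line means below the array medians of 4.92 to 5.05, at 4.63 to 4.81 for GRB7 and 3.56 to 4.04 for GRB14. Neither was shown to be above background, so a fall could hardly have been seen. GRB7, an adaptor of the same family that is known for its place beside the HER2 gene, had 0.05 and -0.14 in BT-A6sh5 and BT-A6sh2 (adjusted p = 0.848 and 0.346). GRB14, which like GRB10 inhibits the insulin receptor, had -0.07 (adjusted p = 0.847) and 0.40 (adjusted p = 0.0747). GRB14 passed in BT-A6sh2 without BT-A6sh2 replicate 1 (0.52, adjusted p = 0.023).

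Among the 16 measured adaptors, docking proteins and partners of GRB10, 2 rose and 2 fell in BT-A6sh5, and 1 rose and 1 fell in BT-A6sh2. The docking proteins of the insulin and IGF1 receptors had unlike values. IRS2 was 7.82, 7.90, 7.82 and 7.78 in BT-EV and 6.81, 6.86, 6.50 and 6.34 in BT-A6sh5, a log2 difference of -1.20 (SE 0.147, adjusted p = 0.000201). In BT-A6sh2 IRS2 was 8.59, 7.99, 8.42 and 8.24, all above BT-EV, with a difference of 0.48 (adjusted p = 0.0628) that passed without BT-A6sh2 replicate 2 (0.59, adjusted p = 0.0183). Leaving out that array raised the share of all transcript clusters called higher in BT-A6sh2 from 5.35% to 11%. IRS1 rose in BT-A6sh2 by 0.71 (SE 0.113, adjusted p = 0.0051), from 6.53, 6.60, 6.62 and 6.61 to 7.47, 7.16, 7.42 and 7.17, and differed by -0.09 in BT-A6sh5 (adjusted p = 0.757). Both docking proteins were therefore lower in BT-A6sh5 than in BT-A6sh2, with log2 differences of -1.68 for IRS2 (adjusted p = 1.23e-05) and -0.80 for IRS1 (adjusted p = 0.000443).

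Of the 12 PI3K, AKT and mTOR genes with a value, BT-A6sh5 had 1 that rose and 1 that fell, and BT-A6sh2 had 2 and 1. EIF4EBP2, a translation repressor held in check by mTOR, fell in BT-A6sh5 by 0.59 (SE 0.0814, adjusted p = 0.000495) with -0.26 for BT-A6sh2 (adjusted p = 0.0704). TSC1, a brake on mTOR, rose in BT-A6sh2 by 0.47 (adjusted p = 0.00842) and in BT-A6sh5 by 0.31 (adjusted p = 0.0286). The TSC1 call in BT-A6sh5 was lost without BT-EV replicates 1, 2 or 4 or any 1 of the 4 BT-A6sh5 arrays, with adjusted p values of 0.0517 to 0.0992, and with array medians subtracted (adjusted p = 0.0567). Of 11 measured FOXO factors, which AKT keeps out of the nucleus, and their targets, 1 rose and 3 fell in BT-A6sh5, and 0 rose and 1 fell in BT-A6sh2. KLF6 fell in BT-A6sh5 by 0.68 (adjusted p = 0.000206) with -0.16 for BT-A6sh2 (adjusted p = 0.223). TXNIP, an inhibitor of glucose uptake, rose by 0.57 (adjusted p = 0.0023) with 0.25 for BT-A6sh2 (adjusted p = 0.133). The members of this list thus moved in both directions.

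**Figure D3:**
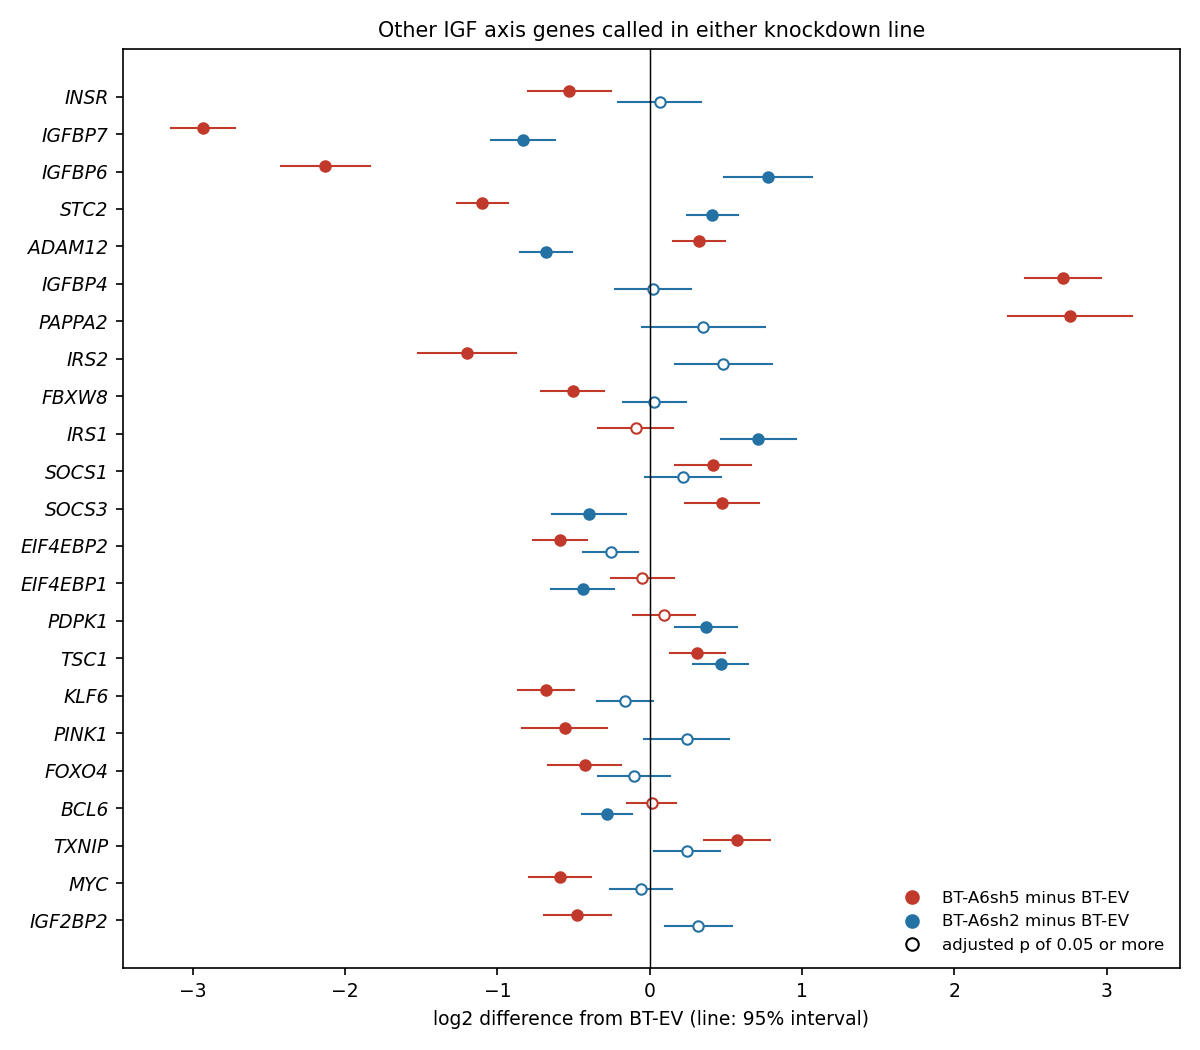
Log2 difference from BT-EV with its 95% interval from limma for the 23 further IGF axis genes called in BT-A6sh5 or BT-A6sh2, filled where the adjusted p was under 0.05. IGFBP7, IGFBP6, IRS2 and STC2 extend furthest to the left and IGFBP4 and PAPPA2 furthest to the right in BT-A6sh5, while the BT-A6sh2 differences lie between -0.83 and 0.78.

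The nearest measured genes around the 3 were compared to see whether whole stretches of the chromosome were low in BT-A6sh5. Gene order was read from the RefSeq gene table, and the 2 nearest protein-coding genes with a transcript cluster on each side were taken. Around IGFBP5 on chromosome 2, none of XRCC5, RPL37A, TNP1 and TNS1 passed in any comparison, and their log2 differences in BT-A6sh5 lay between -0.20 and 0.12, against -4.61 for IGFBP5 between them. TNP1 and TNS1 had BT-EV means of 4.08 and 4.94, below or near the array medians of 4.92 to 5.05. A fall of these genes could hardly have been seen, so for them the question was not tested. XRCC5 and RPL37A were at 12.05 and 6.53 in BT-EV, and lay 5 and 2 places from IGFBP5 in the order of protein-coding genes. The other genes on that side up to XRCC5 had no transcript cluster with a symbol. For the gene directly beside IGFBP5 the question was thus tested on neither side. Around GRB10 on chromosome 7, FIGNL1, a gene of DNA repair, fell in BT-A6sh5 by 0.55 (SE 0.136, adjusted p = 0.0219). DDC, which encodes DOPA decarboxylase, had 0.09, COBL had -0.12 and POM121L12 had -0.03, and none of these 3 passed in any comparison. COBL, with a BT-EV mean of 5.03, was also close to the array medians. The FIGNL1 call was lost without BT-EV replicates 1, 2 or 3 or BT-A6sh5 replicates 3 or 4, with adjusted p values of 0.0609 to 0.0719. Without BT-A6sh2 replicate 2, DDC and COBL passed as lower in BT-A6sh2 than in BT-EV, by 0.37 (adjusted p = 0.0484) and 0.53 (adjusted p = 0.0365), and DDC as higher in BT-A6sh5 than in BT-A6sh2 (0.46, adjusted p = 0.0148). Leaving out this array raised the share of all transcript clusters called lower in BT-A6sh2 from 3.13% to 5.95%. The share called higher in BT-A6sh5 than in BT-A6sh2 went from 8.16% to 10.3%.

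Around IGF2BP3, also on chromosome 7, 3 of the 4 neighbours fell in BT-A6sh5, where 12.7% of all genes with a symbol were called lower. GPNMB, which encodes a membrane glycoprotein of melanosomes and lysosomes, was 7.85, 7.85, 7.92 and 7.95 in BT-EV and 5.07, 4.85, 5.21 and 5.49 in BT-A6sh5, a fall by 2.74 (SE 0.129, adjusted p = 6.49e-08). GPNMB also fell in BT-A6sh2, where it was 5.47, 5.63, 5.75 and 5.45, by 2.32 (adjusted p = 4.90e-06). MALSU1, a factor of mitochondrial ribosome assembly and the gene next to IGF2BP3, fell by 0.55 in BT-A6sh5 (SE 0.081, adjusted p = 0.000798) and rose by 0.31 in BT-A6sh2 (adjusted p = 0.0372). CCDC126 fell by 0.65 in BT-A6sh5 (SE 0.192, adjusted p = 0.0493) and had -0.03 in BT-A6sh2. TRA2A, a splicing factor gene, had -0.28 in BT-A6sh5 (adjusted p = 0.169) with all 4 arrays below BT-EV, and 0.08 in BT-A6sh2. On leaving out 1 array at a time, the CCDC126 call in BT-A6sh5 held without BT-A6sh5 replicate 2 or BT-A6sh2 replicates 1 or 3 and was lost without any 1 of the other 9 arrays, with adjusted p values of 0.0563 to 0.151. It was also lost with quantile normalization repeated (adjusted p = 0.0574). The MALSU1 call in BT-A6sh2 held without BT-A6sh5 replicate 4 or BT-A6sh2 replicates 2 or 3 and was lost without any 1 of the other 9, with adjusted p values of 0.0504 to 0.107. It was also lost with the 2 lines fitted alone (adjusted p = 0.097) and when BT-A6sh2 replicates 1 and 3 were both left out (adjusted p = 0.0696).

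**Figure D4:**
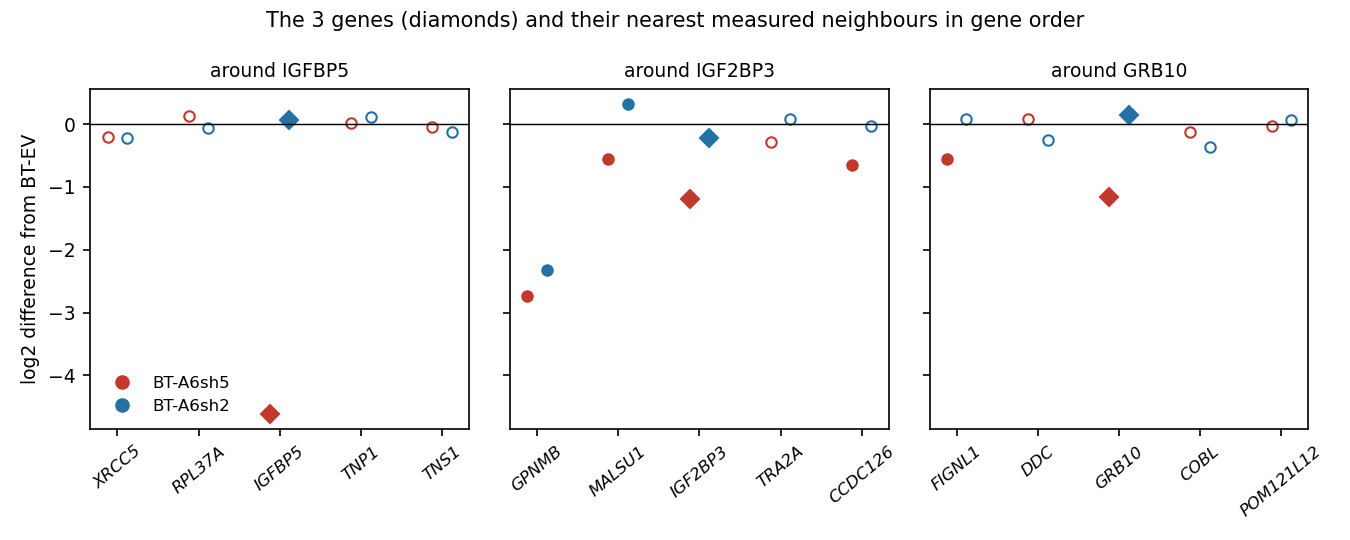
Log2 difference from BT-EV of IGFBP5, IGF2BP3 and GRB10 (diamonds) and of the 2 nearest measured protein-coding genes on each side (circles, filled where the adjusted p was under 0.05) in chromosomal order, in BT-A6sh5 and BT-A6sh2. The 4 neighbours of IGFBP5 lie near 0 in both lines, TNP1 and TNS1 from BT-EV levels below or near the array medians. GPNMB, beyond MALSU1 on the same side of IGF2BP3, lies at -2.74 and -2.32.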

How the data were processed

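RNA of the 12 samples was amplified and hybridized to Affymetrix human gene 2.0 ST arrays. The authors made the deposited log2 values with Affymetrix Expression Console by RMA, which corrects background, quantile-normalizes the arrays and summarizes the probes of each transcript cluster. Such a summary can understate differences of dim genes. Tools in the submitters' notes were affy, RMA and limma (versions: not given in the sources used here). Precision is limited by the number of arrays, and no detection calls were used.

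Values were used as deposited (53617 transcript clusters, 0 missing, 0 identical pairs of arrays, 0 columns without a sample). Gene symbols came from the platform annotation, which left 37519 transcript clusters unnamed, and a gene stands for its transcript cluster of highest mean. The test was limma's two-sided empirical Bayes test (limma 3.58.1, R 4.3.3) from 1 fit of 3 line means, which had 9 residual and 2.68 prior degrees of freedom. This fit pools the spread over lines whose residual SDs differed. With the 2 lines fitted alone, calls against BT-EV went from 4.11% higher and 6.71% lower to 7.45% and 9.44% in BT-A6sh5. In BT-A6sh2 they went from 5.35% and 3.13% to 1.76% and 1.24%. The p-values of a comparison were adjusted by Benjamini-Hochberg over the whole array, and a call was an adjusted p under 0.05. The procedure was run on simulated arrays with known shifts. Each transcript cluster was given the same spread in all lines, so unequal spreads were not tested. Promoter windows came from RefSeq (GRCh38.p14), used otherwise for names and gene order only. Python 3.11.15, pandas 2.3.3 and matplotlib 3.10.9 made tables and figures.

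The 3 genes, the lists and the tests were chosen with earlier results of these data known. Genes named were the 3, ANXA6, 15 fixed relatives (13 measured), the 2 further genes of each of the 6 lists with the largest difference from BT-EV among those called (1 in the list of the IGF2BP family and none among ligands and receptors), the 5 genes most correlated with each of the 3, and the 2 nearest protein-coding genes on each side. The replicate number carried no pairing, as arrays of the same number had correlations of their deviations from the line mean between -0.0764 and 0.0497. The alternatives were repeated quantile normalization, median centring, 2 lines fitted alone, a trended robust prior, a filter on dim transcript clusters, any transcript cluster of a gene, the replicate number as a block, array weights, medians for means (for the 3 genes), and leaving out each array or BT-A6sh2 replicates 1 and 3 together.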

Additional observations from a re-analysis of the deposited data

Results flagged for a closer look

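GRB7 in BT-EV replicate 4 was at 4.96 on the log2 scale, apart from the other 3 BT-EV arrays at 4.68 to 4.72, with a gap of 0.864 of the range. It was the only one of 114 groups of 4 arrays with such a gap, where chance alone gives about 1 in 20.

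Of 35 named genes, 21 differed between the knockdown lines in the test of BT-A6sh5 against BT-A6sh2 (limma, adjusted over all transcript clusters), so that their differences from BT-EV were unequal. Of all genes with a symbol, 11.3% were called higher and 17.3% lower in this comparison, and the 35 include genes named for their large differences, so the count says nothing of the group. The log2 difference between the lines, below 0 where BT-A6sh5 was lower, was -2.91 for IGFBP6, -2.10 for IGFBP7 and -1.51 for STC2 among the binding proteins and their regulators. It was -1.68 for IRS2, -0.80 for IRS1, -0.60 for INSR and -0.47 for GRB14 among receptors, docking proteins and adaptors, and -1.67 for ANXA6. Among RNA-binding, transcription and translation factors it was -0.79 for IGF2BP2, -0.53 for MYC, -0.52 for KLF6 and -0.33 for EIF4EBP2. Among the neighbours it was -0.86 for MALSU1, -0.62 for CCDC126 and FIGNL1, -0.42 for GPNMB and -0.36 for TRA2A. GRB14, with means of 3.56 in BT-A6sh5 and 4.04 in BT-A6sh2, lay below the array medians of 4.92 to 5.05. GPNMB and CCDC126, with means of 5.15 and 5.19 in BT-A6sh5, lay close to them there. BT-A6sh5 was higher for IGFBP4 by 2.69, PAPPA2 by 2.41, IGF1R by 0.36 and TXNIP by 0.33. Calls of 6 of these, and of EIF4EBP2 with the 2 lines fitted alone (adjusted p = 0.0566) or array weights (adjusted p = 0.0717), were lost under some setting. Those of the 6 were lost on leaving out some single arrays. For 4 of them this was so for 9 of the 12 arrays. The call of CCDC126 held without BT-EV replicate 3, BT-A6sh5 replicate 2 or BT-A6sh2 replicate 1 only (adjusted p otherwise up to 0.108). That of GPNMB held without BT-A6sh5 replicate 4 or BT-A6sh2 replicates 1 or 4 only (up to 0.101). That of IGF1R held without BT-A6sh5 replicate 4 or BT-A6sh2 replicates 1 or 3 only (up to 0.094), and that of TXNIP without BT-A6sh5 replicate 3 or BT-A6sh2 replicates 2 or 4 only (up to 0.094). For TRA2A the call was lost without any 1 of 11 arrays, those other than BT-A6sh2 replicate 1, with adjusted p values up to 0.0919. For GRB14 it was lost without BT-A6sh5 replicates 1 or 3 or BT-A6sh2 replicate 3, with adjusted p values of 0.055 to 0.0594. IGFBP6, STC2 and MALSU1 were called against BT-EV in both lines, as falls in BT-A6sh5 and rises in BT-A6sh2.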

How the results depend on the processing

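The differences of IGFBP5, IGF2BP3 and GRB10 moved by less than the spread between arrays under every alternative run on them, and ANXA6 kept its calls in both lines. Leaving out 1 array at a time gave -4.64 to -4.57 for IGFBP5, -1.24 to -1.13 for IGF2BP3 and -1.25 to -1.12 for GRB10 in BT-A6sh5 against BT-EV. For the counts of the 68 further IGF axis genes, fewer arrays, fewer transcript clusters or another estimate of the spread enter by construction, and the cause was otherwise not tested.

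In BT-A6sh2 against BT-EV, the 5 genes called higher were 8 with a trended robust prior and 9 with only transcript clusters above the median, and 4 to 8 on leaving out 1 array (8 without BT-A6sh2 replicate 2). The share of all transcript clusters in the fit called higher went from 5.35% to 6.18% and 7.78% in these settings. It was 11% without BT-A6sh2 replicate 2. The 5 called lower were 3 with array medians subtracted, 2 with the 2 lines fitted alone, 10 with the trended robust prior, 9 above the median only and 2 with the replicate block, and 2 to 5 on leaving out 1 array (2 without any BT-EV array, 3 without any BT-A6sh5 array). The share called lower went from 3.13% to 2.34%, 1.24%, 4.20%, 8.75% and 1.61% in the settings named before the single arrays. In BT-A6sh5 against BT-EV, the 7 called higher were 4 with the replicate block and 4 to 7 on leaving out 1 array (4 without BT-EV replicates 1 or 3 or BT-A6sh5 replicates 1 or 3), and the 12 called lower were 11 to 14. Over all transcript clusters, 4.11% were called higher in the main fit and 3.17% with the replicate block. Between the knockdown lines, the 13 called higher were 6 with medians subtracted, 5 with the 2 lines alone, 7 with the replicate block, 8 with array weights, 8 without BT-A6sh2 replicates 1 and 3 together and 8 to 12 on leaving out 1 array (8 without BT-A6sh5 replicate 2), and the 16 called lower were 15 to 17. Here the share called higher went from 8.16% to 5.96%, 4.10%, 6.61%, 5.55%, 7.26% and 6.38% in the order of the settings named. The replicate numbers only name the arrays, and 4 of 12 arrays correlated best with their own number. Of 44 calls of single named genes, 33 held on leaving out each array in turn and 11 were lost without at least 1. Under the other alternatives 8 calls were lost with the 2 lines alone, 7 with the replicate block, 4 with array weights, and 3 each with quantile normalization repeated, with medians subtracted and without BT-A6sh2 replicates 1 and 3, and 32 of the 44 held under every alternative that gave a value.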

Other observations

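IGF2BP3 is known as a reader of m6A, a methyl mark on mRNA, and GRB10 as an imprinted gene, so genes of both kinds were listed beside them. Of 11 measured m6A writers, erasers and readers, 0 rose and 2 fell in BT-A6sh5, and 0 passed in BT-A6sh2. RBM15B, a subunit of the writer complex, fell by 0.56 (adjusted p = 0.0194) and the reader gene HNRNPA2B1 by 0.40 (adjusted p = 0.0431). Of 12 measured imprinted genes, 1 rose and 1 fell in each knockdown line. In BT-A6sh5, PLAGL1, a zinc-finger gene, fell by 1.99 (SE 0.119, adjusted p = 5.66e-07) and MEST rose by 1.61 (SE 0.136, adjusted p = 1.04e-05). In BT-A6sh2, TFPI2, a protease inhibitor gene, rose by 0.71 (adjusted p = 0.000853) and PEG10 fell by 0.30 (adjusted p = 0.0463). The background of calls among all genes with a symbol was 6.30% higher and 12.7% lower in BT-A6sh5, and 5.13% and 4.78% in BT-A6sh2.

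Besides IGFBP6 and STC2, 2 further IGF axis genes passed in both knockdown lines in opposite directions. ADAM12, a protease that cleaves IGF binding proteins, rose in BT-A6sh5 by 0.32 (adjusted p = 0.0196) and fell in BT-A6sh2 by 0.68 (adjusted p = 0.000881). SOCS3, an inhibitor of cytokine and insulin receptor signalling, rose by 0.47 (adjusted p = 0.0163) and fell by 0.40 (adjusted p = 0.049). Of the 5 axis genes called lower in BT-A6sh2, SOCS3 lay closest to the threshold. As few as 2 genes were called lower there on leaving out 1 array, and whether the SOCS3 call held was not examined. For RBM15B, HNRNPA2B1, PLAGL1, MEST, TFPI2, PEG10 and ADAM12, whether the call held on leaving out 1 array was not examined either. The genes named in these paragraphs were picked after their values had been seen.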
